A study of Mus musculus with 9 samples.

Results

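Selective autophagy removes labelled cargo, and 10 genes of its cargo-binding and membrane-tagging steps were examined in macrophages given triglyceride-rich particles. These were the receptors *Sqstm1*, *Nbr1*, *Optn* and *Tax1bp1*, the ATG8 family members *Map1lc3a*, *Map1lc3b*, *Gabarap*, *Gabarapl1* and *Gabarapl2*, and the phosphoinositide-binding gene *Wipi1*. They were chosen by name for these roles, with earlier results of these data known. All 10 symbols were matched to gene identifiers among the 54432 genes of the table. The libraries came from RAW264.7, a macrophage-like line of the mouse, in 3 groups of 3 libraries: untreated control cells, cells given 1 mM VLDL-sized (VLDLsep) emulsion particles for 6 hours and cells given 1 mM chylomicron-sized (CHYLsep, here CHYL-sized) emulsion particles for 6 hours. The dose of 1 mM for both particles is that of the methods, while a supplementary figure legend gives a lower dose for CHYL-sized particles. If that legend holds, particle size and dose cannot be told apart. The comparisons asked how each particle changed the mRNA of these genes and whether the particle sizes differed. The 3 groups share 1 cell line, the particles were sunflower oil emulsified with caseinate in place of lipoproteins, and samples of a condition from 1 experiment were pooled, so that each library stands for 1 pool. The methods speak of biological triplicates, but the labels name no separate cultures, so the p-values measure the spread between these libraries. Totals were 22617191 to 22856792 estimated counts in the control libraries, 22393893 to 22815932 in the VLDL-sized and 22482786 to 22703800 in the CHYL-sized libraries. Levels are given in cpm, the counts of a library scaled to a common total with TMM factors, and a call means an adjusted p below 0.05.

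In macroautophagy, a double membrane grows around cytoplasmic material, closes and fuses with lysosomes. Proteins of the ATG8 family (the LC3 and GABARAP subfamilies) are coupled to a lipid of that membrane, and receptors such as SQSTM1 (p62) bind ubiquitinated cargo on one side and ATG8 proteins on the other. WIPI proteins bind phosphatidylinositol 3-phosphate where the membrane forms. In macrophages the pathway takes part in the clearance of damaged organelles, microbes and lipid droplets, and the mRNA level of these genes is not a measure of autophagic flux.

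The cell line was checked against marker genes. All 10 macrophage markers (*Adgre1*, *Cd68*, *Csf1r*, *Itgam*, *Lyz2*, *Ptprc*, *Spi1*, *Fcgr1*, *Cd14* and *Tyrobp*) had counts that passed the filter, with the highest counts for *Lyz2*. Their summed level was 7322 to 7398 cpm in control, 6564 to 6779 cpm in VLDL-sized and 6756 to 6981 cpm in CHYL-sized libraries, so that the control libraries lay above both treated groups. Of these 10 markers, 1 (*Cd68*) was higher and 6 (*Itgam*, *Lyz2*, *Ptprc*, *Spi1*, *Fcgr1* and *Cd14*) were lower after VLDL-sized particles, and 3 (*Ptprc*, *Fcgr1* and *Cd14*) were lower after CHYL-sized particles in limma-voom. That is 70% and 30% of the markers called in either direction, against 35.6% and 25.7% of all genes tested. The part of these markers in the results was not tested. The 5 epithelial markers (*Epcam*, *Krt8*, *Krt18*, *Krt19* and *Cdh1*) had 0 counts in all 9 libraries, the 5 T cell markers (*Cd3g* and *Cd8a* at 0) summed to at most 0.343 cpm and the 5 fibroblast markers (*Col3a1* and *Dcn* at 0, *Pdgfra* the highest) to at most 2.53 cpm. The 5 adipocyte markers summed to 6.17 to 14.6 cpm, nearly all of it *Fabp4*, which macrophages also express, with *Adipoq*, *Cidec* and *Lep* at 0 counts, and the sum was highest in replicate 3 of each group. Replicate 3 stood apart in every group: over the tested genes the chi-square per gene was 3.39 to 5.03 between replicates 1 and 2 and 12.0 to 15.1 between replicate 3 and either of them, where sampling noise alone gives about 1. Counts of called genes are also given without replicate 3.

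After VLDL-sized particles 8 of the 10 genes were higher than in control and 0 were lower, and after CHYL-sized particles 7 were higher and 0 lower (limma-voom with Benjamini-Hochberg adjustment over 12637 genes). All 10 had more than 10 counts in every library, from 98 counts (*Wipi1*, CHYL-sized replicate 3) to 40999 counts (*Sqstm1*, VLDL-sized replicate 3), so that none entered the test through 1 group only. Of all genes tested, 35.6% were called after VLDL-sized particles, 17.8% as higher, and 25.7% after CHYL-sized particles, 12.7% as higher. The 3 treated libraries lay wholly above the 3 control libraries for 8 of the 10 genes after VLDL-sized and for 8 after CHYL-sized particles, against 23.7% and 20.8% of all genes tested. The median log2 fold change of the 10 genes was 0.40 after VLDL-sized and 0.31 after CHYL-sized particles, where the median over all tested genes was 0.00 in both. Because the 10 genes were chosen with earlier results of these data known, these counts and medians describe the set. They are not independent evidence that it was raised. Both comparisons use the same control libraries. Without replicate 3 of each group, 8 and 7 of the 10 were called, among 5380 and 4182 of all genes tested, where all libraries gave 4500 and 3249. With a replicate block 8 of the 10 were called after each particle, among 6058 and 4949 of all genes tested. A batch term for replicate 3 also called 8 after each, among 6212 and 5147. Scaling by library size alone shifted the median of all genes to -0.09 and -0.08, and moved the share of higher genes among all calls from 49.9% to 31.3% and from 49.6% to 29.8%; under it 7 and 5 of the 10 genes were called, all of them higher, among 4819 and 3582 of all genes. In bulk libraries of this kind, fewer cells with a transcript and less of that transcript per cell cannot be told apart.

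**Figure D1:**
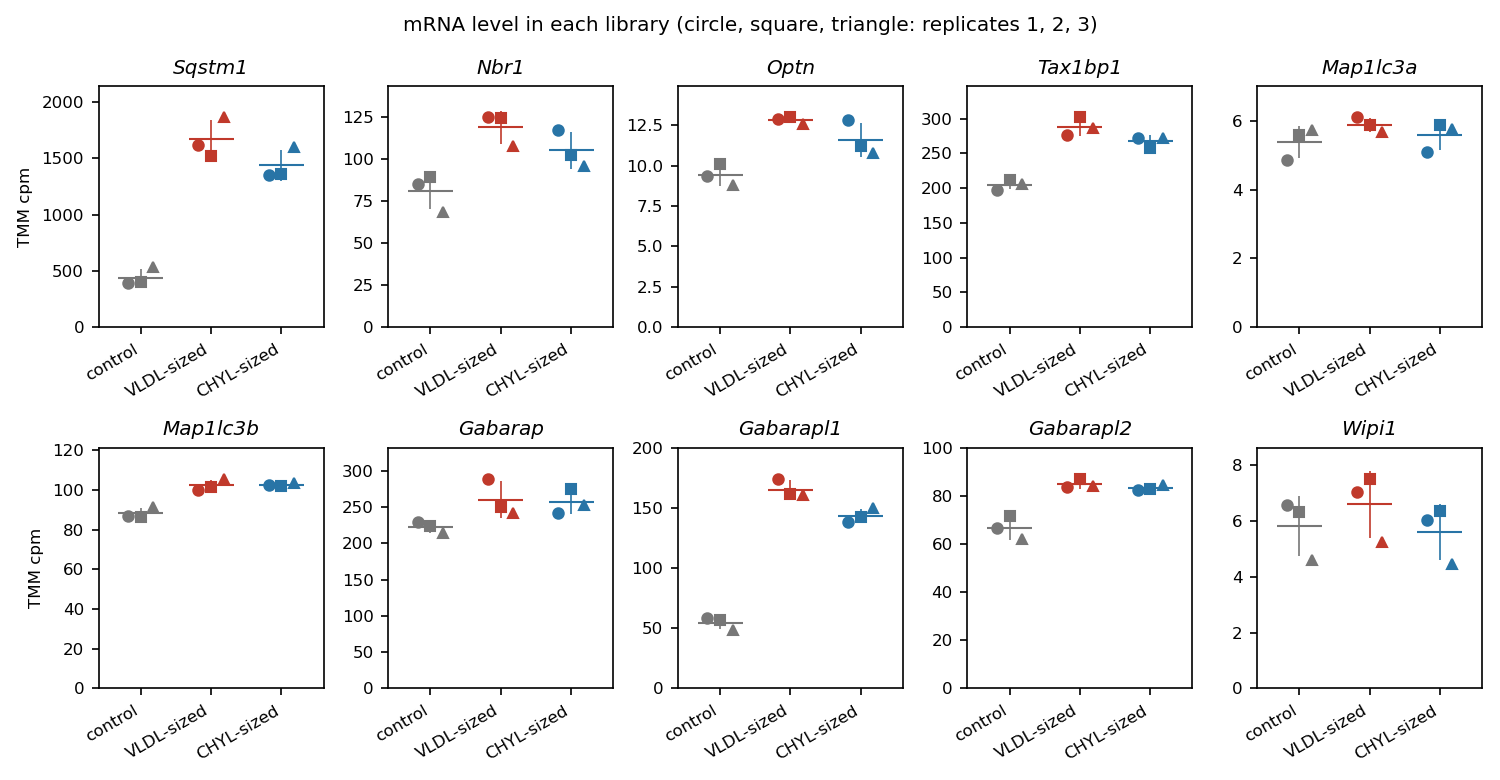
Level of each gene (vertical axes, TMM cpm, each starting at 0) in the 3 control, 3 VLDL-sized and 3 CHYL-sized libraries, with symbols for replicates 1, 2 and 3 and lines for the mean and 1 SD (n = 3). *Sqstm1* rises from 388 to 529.8 cpm to 1524 to 1865 and 1357 to 1600.4 cpm. Treated and control libraries overlap for *Map1lc3a* and *Wipi1*.

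*Sqstm1* (ENSMUSG00000015837, chr11:50199366-50210827, minus strand of GRCm38) encodes p62, a receptor that carries ubiquitinated cargo and binds KEAP1. Its level was 388, 398 and 529.8 cpm in the control libraries (replicates 1, 2 and 3), 1619, 1524 and 1865 cpm after VLDL-sized particles and 1357, 1358 and 1600.4 cpm after CHYL-sized particles. All 6 treated libraries lay above every control library, replicate 3 was the highest of its group in each, and the VLDL-sized and CHYL-sized libraries overlapped. *Sqstm1* rose 3.83-fold after VLDL-sized particles (log2 fold change 1.94 ± 0.12 SE, limma-voom, Benjamini-Hochberg adjusted p = 1.53e-06) and 3.30-fold after CHYL-sized particles (1.72 ± 0.12, adjusted p = 4.8e-06). In order of log2 fold change it was number 98 from the top of 12637 genes after VLDL-sized and number 103 after CHYL-sized particles. Between libraries of the same replicate number, VLDL-sized over control was 4.18-fold, 3.83-fold and 3.52-fold for replicates 1, 2 and 3. Over the 18 other settings and left-out libraries the log2 fold change stayed between 1.85 and 2.08 after VLDL-sized and between 1.64 and 1.87 after CHYL-sized particles.

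*Nbr1* (ENSMUSG00000017119, chr11:101552149-101581951, plus strand) encodes a second ubiquitin-binding receptor, one that partners with p62 in cargo condensation. Its level was 84.8, 88.9 and 68.4 cpm in the control libraries (replicates 1, 2 and 3), 125, 124 and 107 cpm after VLDL-sized particles and 117, 102 and 95.6 cpm after CHYL-sized particles. Treated and control libraries did not overlap, and replicate 3 was the lowest of each group. *Nbr1* rose by 0.56 ± 0.11 (log2, SE) after VLDL-sized (limma-voom, Benjamini-Hochberg adjusted p = 0.00207) and by 0.39 ± 0.11 after CHYL-sized particles (adjusted p = 0.0231). The latter call was lost without control replicate 3 (log2 0.27, adjusted p = 0.0614), CHYL-sized replicate 1 (0.30, 0.0933) or CHYL-sized replicate 2 (0.40, 0.0516) and with library size only (0.31, 0.081), in limma-voom. Over all 18 other settings its adjusted p was 5.77e-05 to 0.0933 (limma-voom, edgeR and DESeq2).

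*Optn* (ENSMUSG00000026672, chr2:5020642-5064051, minus strand) encodes optineurin, a receptor for mitochondria and bacteria that is phosphorylated by TBK1. Its level was 9.38, 10.1 and 8.79 cpm in the control libraries (replicates 1, 2 and 3), 12.9, 13.0 and 12.6 cpm after VLDL-sized particles and 12.8, 11.2 and 10.8 cpm after CHYL-sized particles. No treated library fell into the control range, and the VLDL-sized libraries lay close together. *Optn* rose by 0.44 ± 0.09 (log2, SE) after VLDL-sized (limma-voom, Benjamini-Hochberg adjusted p = 0.00387) and by 0.30 ± 0.10 after CHYL-sized particles (adjusted p = 0.0426). The CHYL-sized call was near the threshold: it was lost in 9 of 18 other settings, with log2 fold changes of 0.22 to 0.35 and adjusted p of 0.0531 to 0.158 in DESeq2 or limma-voom (all 18: 0.0109 to 0.158). These 9 were DESeq2, library size only, no filter, only the groups compared, and the removal of any of the 3 control libraries or of CHYL-sized replicate 1 or 2.

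*Tax1bp1* (ENSMUSG00000004535, chr6:52713729-52766780, plus strand) encodes a ubiquitin-binding receptor that also recruits the autophagy machinery to protein aggregates. Its level was 198, 211 and 206 cpm in the control libraries (replicates 1, 2 and 3), 277, 302 and 287 cpm after VLDL-sized particles and 273, 258 and 272 cpm after CHYL-sized particles. The control libraries lay below all treated libraries, and all 3 VLDL-sized libraries lay above all 3 CHYL-sized libraries. *Tax1bp1* rose by 0.49 ± 0.05 (log2, SE) after VLDL-sized (limma-voom, Benjamini-Hochberg adjusted p = 3.94e-05) and by 0.38 ± 0.05 after CHYL-sized particles (adjusted p = 0.000344). All 4 receptors were thus called higher after both particles, with median log2 fold changes of 0.53 and 0.38. Of all genes tested, 17.8% and 12.7% were called higher. After CHYL-sized particles *Nbr1* was called in 14 and *Optn* in 9 of the 18 other settings. Per kilobase of the longest protein-coding transcript, *Sqstm1* made up 63.2 to 71.1% of the summed level of the 4 receptors in control, 82.3 to 85.9% in VLDL-sized and 81.9 to 84.8% in CHYL-sized libraries, and *Tax1bp1* 22.5 to 27.3%, 10.8 to 13.3% and 11.7 to 13.4%. The shares depended on the length. With median transcript length those of *Sqstm1* were 44.7 to 52.9%, 68.5 to 73.8% and 68.1 to 72.0% and those of *Tax1bp1* 43.5 to 50.1%, 24.0 to 28.6% and 25.8 to 28.9%, and with exon-union length 76.3 to 82.7%, 89.8 to 92.1% and 89.4 to 91.5% and 10.8 to 13.6%, 4.77 to 5.97% and 5.23 to 6.04%. With each length the share of *Tax1bp1* was lower in every treated library although its own level was higher.

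Among the ATG8 family, *Gabarapl1* (ENSMUSG00000030161, chr6:129533160-129542346, plus strand), a member of the GABARAP subfamily, had the largest log2 fold changes in both comparisons with control. Its level was 58.6, 57.0 and 48.2 cpm in the control libraries (replicates 1, 2 and 3), 174, 161 and 161 cpm after VLDL-sized particles and 138, 143 and 149.9 cpm after CHYL-sized particles. The 3 groups did not overlap: every CHYL-sized library lay above every control library, and every VLDL-sized library above every CHYL-sized library. *Gabarapl1* rose 3.04-fold after VLDL-sized particles (log2 fold change 1.60 ± 0.07 SE, limma-voom, Benjamini-Hochberg adjusted p = 1.82e-07) and 2.64-fold after CHYL-sized particles (1.40 ± 0.07, adjusted p = 5.97e-07). It was number 147 and number 151 from the top of 12637 genes. Same-numbered VLDL-sized and control libraries differed 2.97-fold, 2.83-fold and 3.34-fold. Across the 18 other settings the log2 fold change was 1.51 to 1.65 after VLDL-sized and 1.28 to 1.45 after CHYL-sized particles.

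*Gabarapl2* (ENSMUSG00000031950, chr8:111940703-111953612, plus strand), also called GATE-16, measured 66.7, 71.8 and 61.9 cpm in the control libraries (replicates 1, 2 and 3), 83.5, 87.0 and 84.1 cpm after VLDL-sized particles and 82.6, 83.0 and 84.4 cpm after CHYL-sized particles. The treated libraries lay above the control libraries and within a narrow band. It rose by 0.35 ± 0.06 (log2, SE) after VLDL-sized (limma-voom, Benjamini-Hochberg adjusted p = 0.000849) and by 0.32 ± 0.06 after CHYL-sized particles (adjusted p = 0.00218). *Gabarap* (ENSMUSG00000018567, chr11:69991143-69994951, plus strand), the founding member of its subfamily, measured 230.1, 224 and 214 cpm in the control libraries (replicates 1, 2 and 3), 289, 251 and 242 cpm after VLDL-sized particles and 242, 275 and 254 cpm after CHYL-sized particles. Again no treated library fell into the control range, but VLDL-sized replicate 1 and CHYL-sized replicate 2 were well above the others of their groups. The log2 fold change of *Gabarap* was 0.22 ± 0.07 after VLDL-sized (limma-voom, Benjamini-Hochberg adjusted p = 0.0358) and 0.20 ± 0.07 after CHYL-sized particles (adjusted p = 0.0636, not past the threshold). The first call did not survive the removal of control replicate 1 (log2 0.24, adjusted p = 0.0594), 2 (0.22, 0.0781) or 3 (0.19, 0.093) or of VLDL-sized replicate 1 (0.14, 0.122) or 2 (0.25, 0.0516), nor scaling by library size (0.13, 0.217), in limma-voom. Over the 18 other settings the adjusted p of this value was 0.00547 to 0.217 (limma-voom, edgeR and DESeq2). The CHYL-sized value passed the threshold with DESeq2 (adjusted p = 0.0396) and in limma-voom with only the groups compared (adjusted p = 0.0383), with a replicate block (0.0187) and with a batch term for replicate 3 (0.0114), over a range of 0.0114 to 0.265 for the 18 settings.

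The remaining ATG8 members form the LC3 subfamily. *Map1lc3b* (ENSMUSG00000031812, chr8:121590361-121598760, plus strand), the source of the LC3B protein commonly used to mark autophagosomes, measured 86.9, 86.1 and 91.3 cpm in the control libraries (replicates 1, 2 and 3), 100.1, 102 and 105 cpm after VLDL-sized particles and 102, 102 and 103 cpm after CHYL-sized particles. All treated libraries lay above the control libraries, while the VLDL-sized and CHYL-sized ranges overlapped. The log2 fold changes were 0.22 ± 0.05 after VLDL-sized (limma-voom, Benjamini-Hochberg adjusted p = 0.0038) and 0.22 ± 0.05 after CHYL-sized particles (adjusted p = 0.0052); with library size only they were 0.12 and 0.14. *Map1lc3a* (ENSMUSG00000027602, chr2:155276297-155278073, plus strand), the other LC3 gene, measured 4.88, 5.60 and 5.74 cpm in the control libraries (replicates 1, 2 and 3), 6.12, 5.89 and 5.69 cpm after VLDL-sized particles and 5.09, 5.90 and 5.79 cpm after CHYL-sized particles. The 3 groups overlapped. Its log2 fold changes were 0.13 (95% confidence interval -0.12 to 0.38, limma-voom, Benjamini-Hochberg adjusted p = 0.422) after VLDL-sized and 0.05 (-0.21 to 0.30, adjusted p = 0.8) after CHYL-sized particles, neither past the threshold, and the latter was -0.03 with library size only. The VLDL-sized value ran from 0.03 (library size only) to 0.20 (without replicate 3) over the 18 other settings.

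Of the 5 ATG8 genes, 4 were called higher after VLDL-sized and 3 after CHYL-sized particles (80% and 60%). Of all genes tested, 17.8% and 12.7% were called higher. Their summed level per kilobase of the longest protein-coding transcript was 262 to 279.7 cpm per kb in control, 363 to 403 cpm per kb in VLDL-sized and 348 to 375 cpm per kb in CHYL-sized libraries. *Gabarapl1* supplied 10.1 to 11.5% of that sum in control, 23.8 to 24.4% in VLDL-sized and 20.9 to 22.6% in CHYL-sized libraries, and *Gabarap* 59.8 to 60.9%, 49.4 to 53.1% and 51.5 to 54.2%. These shares too depended on the length: *Gabarapl1* supplied 18.2 to 20.5%, 38.2 to 39.0% and 34.4 to 36.7% with median transcript length and 13.0 to 14.7%, 29.1 to 30.01% and 25.8 to 27.9% with exon-union length. With each length *Gabarap* was the most abundant ATG8 transcript in all 9 libraries, and its share was lower in each treated library than in any control library. With median transcript length its lead was narrow after VLDL-sized particles: it supplied 40.2 to 43.5%, and in replicate 3 40.2% beside 39.0% for *Gabarapl1*. On the scale of the longest transcript, *Map1lc3b* supplied 11.8 to 13.2%, 9.43 to 11.0% and 10.3 to 11.2%, and *Map1lc3a* 1.57 to 1.97%, 1.36 to 1.43% and 1.32 to 1.43%.

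**Figure D2:**
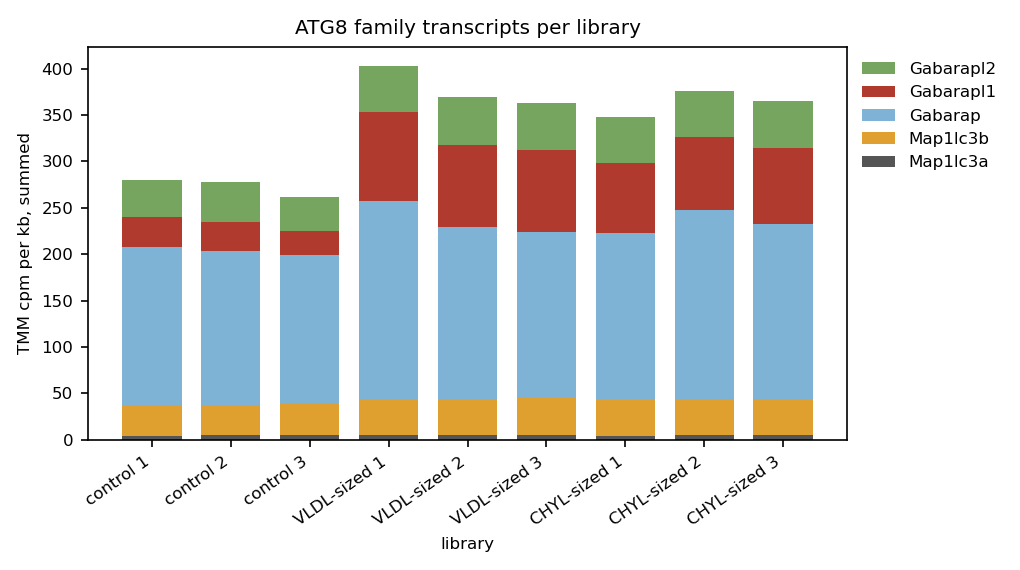
Level per length (vertical axis, TMM cpm per kb of the longest protein-coding transcript) of the 5 ATG8 genes, stacked for each of the 9 libraries. The whole bar reaches 262 to 279.7 cpm per kb in control and 363 to 403 cpm per kb in VLDL-sized libraries, and the *Gabarapl1* segment grows from 26.5 to 32.2 to 88.3 to 95.7 cpm per kb.

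*Wipi1* (ENSMUSG00000041895, chr11:109573331-109611967, minus strand) encodes a propeller protein that binds phosphatidylinositol 3-phosphate on forming autophagosomes. It measured 6.56, 6.32 and 4.59 cpm in the control libraries (replicates 1, 2 and 3), 7.03, 7.50 and 5.23 cpm after VLDL-sized particles and 6.02, 6.35 and 4.47 cpm after CHYL-sized particles. The groups overlapped, and replicate 3 was the lowest library of each. Between libraries of the same number the log2 differences were 0.10, 0.25 and 0.19 for VLDL-sized minus control, all above 0, and -0.12, 0.01 and -0.04 for CHYL-sized minus control. VLDL-sized minus CHYL-sized gave 0.22, 0.24 and 0.23, also all above 0. Neither a replicate block nor a batch term for replicate 3 brought a call for *Wipi1* in any of the 3 comparisons (limma-voom). The log2 fold change was 0.18 (95% confidence interval -0.25 to 0.60, limma-voom, Benjamini-Hochberg adjusted p = 0.51) after VLDL-sized and -0.05 (-0.49 to 0.39, adjusted p = 0.883) after CHYL-sized particles. Neither passed the threshold, and the sign of the CHYL-sized value turned without control replicate 1 (0.04), control replicate 2 (0.02) or CHYL-sized replicate 3 (0.10). The VLDL-sized value ran from 0.02 to 0.33 over the 18 other settings.

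**Figure D3:**
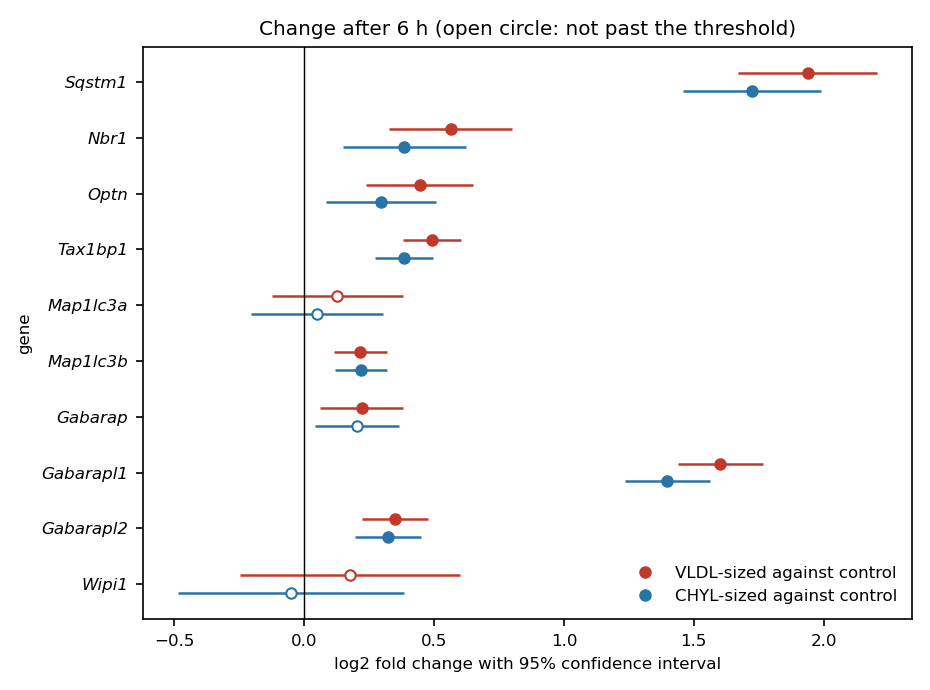
Log2 fold change against control (horizontal axis, points with 95% confidence intervals from limma-voom) of the 10 genes after VLDL-sized and CHYL-sized particles, filled where the adjusted p was below 0.05. *Sqstm1* lies at 1.94 and 1.72 and *Gabarapl1* at 1.60 and 1.40, and the other 8 genes lie between -0.05 and 0.56.

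The particle sizes were then compared directly. Of the 10 genes 0 were called between VLDL-sized and CHYL-sized libraries, beside 0% of all genes tested (limma-voom with Benjamini-Hochberg adjustment). At an unadjusted p under 0.05, 813 of 12637 genes passed. A p that misses the threshold does not show that the values did not differ. DESeq2 called 24 genes and edgeR's quasi-likelihood test 0, none of them among the 10. The log2 differences, VLDL-sized minus CHYL-sized, ran from -0.003 (*Map1lc3b*) to 0.23 (*Wipi1*), with 9 of 10 above 0 and a median of 0.13 beside 0.00 for all genes. For *Sqstm1* the difference was 0.21 (95% confidence interval -0.05 to 0.48, over the 18 other settings 0.13 to 0.29). For *Gabarapl1* it was 0.20 (0.05 to 0.36, over the settings 0.17 to 0.26). Limma-voom gave adjusted p = 0.82 for *Sqstm1* and 0.645 for *Gabarapl1*, and that of *Gabarapl1* before adjustment was 0.0143. The libraries did not overlap for 2 of the 10 genes, *Tax1bp1* and *Gabarapl1*, against 11.3% of all genes tested. Without replicate 3 of each group, 2 genes were called, *Sqstm1* (log2 0.21, limma-voom adjusted p = 0.0158, 0.0158 to 0.999 over the 18 settings) and *Gabarapl1* (0.26, 0.0173, 0.0173 to 0.999), of 257 genes in all. *Sqstm1* was also called with a replicate block (limma-voom adjusted p = 0.045) and with a batch term for replicate 3 (adjusted p = 0.0223).

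Levels of different genes were compared per kilobase of the longest protein-coding transcript (mean ± SD, n = 3, cpm per kb). In control libraries *Gabarap* (165 ± 5.84) and *Sqstm1* (164 ± 29.6) were highest, and their ranges overlapped. *Tax1bp1* (62.4 ± 2.10), *Gabarapl2* (39.8 ± 2.95), *Map1lc3b* (33.5 ± 1.07), *Gabarapl1* (30.01 ± 3.08), *Nbr1* (16.8 ± 2.26), *Map1lc3a* (4.86 ± 0.418), *Optn* (3.61 ± 0.254) and *Wipi1* (1.74 ± 0.323) followed, each without overlap with the next. After VLDL-sized particles *Sqstm1* (625 ± 65.9) stood above *Gabarap* (193 ± 18.6), and *Gabarapl1* (90.9 ± 4.19) stood above *Gabarapl2* (50.6 ± 1.11) and *Map1lc3b* (38.9 ± 1.06) and overlapped *Tax1bp1* (87.9 ± 3.88). The CHYL-sized libraries gave the same first places, *Sqstm1* (538 ± 52.5) before *Gabarap* (190.2 ± 12.3), with *Tax1bp1* (81.5 ± 2.64) and *Gabarapl1* (78.9 ± 3.24) overlapping and *Map1lc3a* (5.03 ± 0.392) overlapping *Optn* (4.43 ± 0.411). The order depended on the length used: with exon-union or median transcript length *Sqstm1* had the highest mean in control, but only in control replicate 3 was it the highest of the 10 genes. In control replicates 1 and 2 *Gabarap* lay above it with exon-union length and *Tax1bp1* with median length, so these ranges overlapped. *Gabarapl1* already ranked above *Map1lc3b* in control with either of these lengths, and above *Gabarapl2* with median length. With all 3 lengths *Map1lc3a*, *Optn* and *Wipi1* were the last 3 in control.

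Reads of neighbouring or similar genes can be divided between them, and the sources used here do not state whether the libraries kept the strand. *Gabarapl1* overlaps the gene *1700101I11Rik*, annotated as a processed transcript, on the opposite strand by 570 exon bases, 28.3% of its exons. *1700101I11Rik* measured 2.30, 1.78 and 2.18 cpm in control libraries, 5.88, 6.98 and 6.98 cpm after VLDL-sized and 6.93, 5.40 and 6.07 cpm after CHYL-sized particles. It was higher in every treated library than in any control library, like *Gabarapl1*, and its share in the *Gabarapl1* counts was not tested. *Sqstm1* overlaps *Mrnip* on the opposite strand by 580 exon bases, 17.3% of its exons, and *Mrnip* measured 3.82, 3.14 and 4.14 cpm in the control libraries, 2.20, 1.90 and 2.72 cpm after VLDL-sized and 2.00, 3.01 and 2.49 cpm after CHYL-sized particles. *Mrnip* was lower in every treated library, opposite to *Sqstm1*. Both neighbours were picked for their overlap, after their values were seen. *Map1lc3b* overlaps *Zcchc14* by 58 exon bases at its end. Of stretches of 31 bases in the transcripts, 16.4% of those of *Sqstm1* and 25.2% of those of *Gabarapl1* also occurred in another gene (16.3% in *Mrnip* and 25.2% in *1700101I11Rik*). For *Gabarapl2* the share was 15.3%, and 3 processed pseudogenes that each held 5% or more did not exceed 0.0456 cpm, and for *Map1lc3b* 8.64%, with no single gene holding 5% or more. *Gabarap* and *Map1lc3a* shared none, and no pair of the 10 genes shared such a stretch.

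The other genes of the pathway were taken from fixed lists of 62 genes, of which 61 passed the count filter; *Calcoco2*, a further receptor, had 0 counts in all 9 libraries. After VLDL-sized particles 18 of 61 were higher and 7 lower (median log2 fold change 0.10), and after CHYL-sized particles 16 were higher and 4 lower (median 0.09; limma-voom with Benjamini-Hochberg adjustment). That is 41% and 32.8% of the list called in either direction, against 35.6% and 25.7% of all genes tested. As higher alone, 17.8% and 12.7% of all genes were called. The treated libraries lay wholly above control for 24 of the 61 after each particle, and wholly below for 8 and 7. Among all genes 23.7% and 20.8% lay wholly above. For each group of genes the shares called in either direction after VLDL-sized and CHYL-sized particles are given, to be read against those shares of all genes. Of the 5 genes of the ULK1 complex, which starts autophagosome formation, 3 were higher and 1 lower after VLDL-sized, and 4 were higher and 1 lower after CHYL-sized particles (80% and 100% called). There *Rb1cc1*, the scaffold FIP200, had log2 fold changes of 0.64 and 0.46 and the kinase *Ulk1* of 0.62 and 0.43, whereas its relative *Ulk2* had -0.31 and -0.22 and *Atg13* 0.34 and 0.20. Of the 8 genes of the class III PI3-kinase complex, 2 were higher and 1 lower after VLDL-sized, and 1 were higher and 0 lower after CHYL-sized particles (37.5% and 12.5% called). *Atg14*, which targets the complex to autophagy, had 0.50 and 0.35, *Uvrag* -0.20 and -0.17 and *Nrbf2* 0.22 and 0.25. The CHYL-sized call was *Nrbf2* (limma-voom adjusted p = 0.0172), while *Atg14* (0.0625) and *Uvrag* (0.0575) were not called there. Of the 8 genes for WIPI proteins, ATG9 and lipid transfer, 3 were higher and 2 lower after VLDL-sized, and 2 were higher and 2 lower after CHYL-sized particles (62.5% and 50% called). *Vmp1*, a scramblase of the endoplasmic reticulum, had 0.48 and 0.42, *Atg2b* 0.45 and 0.23, *Wipi2* 0.36 and 0.31 and *Atg9a*, the membrane-carrying scramblase, -0.45 and -0.42. The CHYL-sized value of *Atg2b* was not called (limma-voom adjusted p = 0.0982). Some of these results depended on single libraries, and the log2 fold change without each library named is given in brackets (limma-voom). *Uvrag* after VLDL-sized particles was no longer called without control replicate 2 (-0.19), control replicate 3 (-0.19), VLDL-sized replicate 1 (-0.19) or VLDL-sized replicate 2 (-0.20). *Nrbf2* after VLDL-sized particles was no longer called without control replicate 1 (0.18), control replicate 2 (0.21), VLDL-sized replicate 1 (0.23) or VLDL-sized replicate 3 (0.19). *Ulk2* after CHYL-sized particles was no longer called without control replicate 1 (-0.19). *Atg13* after CHYL-sized particles was no longer called without control replicate 1 (0.16), control replicate 2 (0.18), CHYL-sized replicate 1 (0.21), CHYL-sized replicate 2 (0.21) or CHYL-sized replicate 3 (0.17). *Nrbf2* after CHYL-sized particles was no longer called without control replicate 1 (0.21), control replicate 2 (0.24) or CHYL-sized replicate 3 (0.23). *Wipi2* after CHYL-sized particles was no longer called without control replicate 1 (0.28), control replicate 2 (0.25) or CHYL-sized replicate 3 (0.23). *Atg14* after CHYL-sized particles passed the threshold without control replicate 3 (0.41) or CHYL-sized replicate 2 (0.44). *Uvrag* after CHYL-sized particles passed the threshold without CHYL-sized replicate 1 (-0.22). *Atg2b* after CHYL-sized particles passed the threshold without control replicate 2 (0.32). With library size only, *Nrbf2* (0.12) after VLDL-sized particles and *Nrbf2* (0.17), *Atg13* (0.12) and *Wipi2* (0.23) after CHYL-sized particles were no longer called. With no filter, *Nrbf2* (0.22) and *Uvrag* (-0.20) after VLDL-sized particles and *Nrbf2* (0.25) and *Atg13* (0.20) after CHYL-sized particles were no longer called. With DESeq2, *Atg14* (0.35) after CHYL-sized particles was past the threshold. With a replicate block, *Atg14* (0.35), *Uvrag* (-0.17) and *Atg2b* (0.23) after CHYL-sized particles were past the threshold. With a batch term for replicate 3, *Atg14* (0.35), *Uvrag* (-0.17) and *Atg2b* (0.23) after CHYL-sized particles were past the threshold. Without replicate 3 of each group, *Atg14* (0.31) after CHYL-sized particles was past the threshold. With library size only, *Uvrag* (-0.25) after CHYL-sized particles was past the threshold. With a stricter filter, *Uvrag* (-0.17) after CHYL-sized particles was past the threshold.

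Of the 11 genes that process and couple ATG8 proteins, 3 were higher and 0 lower after VLDL-sized, and 3 were higher and 0 lower after CHYL-sized particles (27.3% and 27.3% called). *Atg12*, the ubiquitin-like part of the coupling enzyme, had 0.71 and 0.47 with levels of 30.8, 30.8 and 31.3 cpm in control and 51.6, 51.1 and 49.8 cpm in VLDL-sized libraries, and the proteases *Atg4c* and *Atg4a* had 0.48 and 0.36 and 0.29 and 0.31. Of the 14 genes of fusion with the lysosome, 5 were higher and 0 lower after VLDL-sized, and 4 were higher and 0 lower after CHYL-sized particles (35.7% and 28.6% called), near the shares of all genes tested. Named from these were *Tecpr1* (0.43 and 0.34) and the SNARE *Snap29* (0.36 and 0.32), with *Vps39* at 0.30 and 0.18 and *Ykt6* at 0.17 and 0.15. Of the 15 tested genes among 16 further receptors, 2 were higher and 3 lower after VLDL-sized, and 2 were higher and 1 lower after CHYL-sized particles (33.3% and 20% called). *Bnip3*, a mitochondrial receptor, measured 22.1, 24.5 and 19.5 cpm in control libraries, 46.7, 41.9 and 41.0 cpm after VLDL-sized and 37.7, 42.5 and 39.1 cpm after CHYL-sized particles. None of its treated libraries overlapped the control libraries (log2 fold changes 0.98 and 0.85, limma-voom adjusted p = 2.11e-05 and 9.34e-05). *Tollip* had 0.26 and 0.21, *Retreg1*, a receptor for endoplasmic reticulum, -0.27 and -0.21, and *Wdfy3*, a scaffold for aggregate clearance, -0.30 and -0.27. The CHYL-sized values of *Vps39* (limma-voom adjusted p = 0.111) and *Wdfy3* (0.0508) were not called. Here too some calls changed without a single library, with the log2 fold change without each in brackets (limma-voom). *Atg4a* after VLDL-sized particles was no longer called without control replicate 1 (0.20), control replicate 2 (0.31), VLDL-sized replicate 2 (0.26) or VLDL-sized replicate 3 (0.24). *Ykt6* after VLDL-sized particles was no longer called without control replicate 1 (0.16) or VLDL-sized replicate 3 (0.14). *Wdfy3* after VLDL-sized particles was no longer called without control replicate 1 (-0.30), control replicate 2 (-0.23) or VLDL-sized replicate 3 (-0.23). *Atg4c* after CHYL-sized particles was no longer called without control replicate 2 (0.34), control replicate 3 (0.32), CHYL-sized replicate 1 (0.32) or CHYL-sized replicate 2 (0.33). *Atg4a* after CHYL-sized particles was no longer called without control replicate 1 (0.23), control replicate 2 (0.34), CHYL-sized replicate 1 (0.28) or CHYL-sized replicate 3 (0.27). *Ykt6* after CHYL-sized particles was no longer called without control replicate 1 (0.15), control replicate 2 (0.17), control replicate 3 (0.14), CHYL-sized replicate 1 (0.17), CHYL-sized replicate 2 (0.15) or CHYL-sized replicate 3 (0.14). *Tollip* after CHYL-sized particles was no longer called without control replicate 1 (0.18), control replicate 2 (0.21) or CHYL-sized replicate 1 (0.20). *Retreg1* after CHYL-sized particles was no longer called without control replicate 1 (-0.23), control replicate 3 (-0.14), CHYL-sized replicate 1 (-0.22), CHYL-sized replicate 2 (-0.17) or CHYL-sized replicate 3 (-0.22). *Wdfy3* after CHYL-sized particles passed the threshold without control replicate 3 (-0.35) or CHYL-sized replicate 1 (-0.34). Other settings changed calls too. With library size only, *Atg4a* (0.19), *Vps39* (0.21) and *Ykt6* (0.07) after VLDL-sized particles and *Atg4c* (0.28), *Atg4a* (0.23), *Snap29* (0.24), *Ykt6* (0.07) and *Tollip* (0.13) after CHYL-sized particles were no longer called. With DESeq2 size factors in voom, *Atg4a* (0.29) after VLDL-sized particles was no longer called. With no filter, *Atg4a* (0.29) after VLDL-sized particles and *Atg4c* (0.35), *Atg4a* (0.31) and *Ykt6* (0.15) after CHYL-sized particles were no longer called. With only the groups compared, *Atg4a* (0.28) after VLDL-sized particles and *Atg4a* (0.31) after CHYL-sized particles were no longer called. Without replicate 3 of each group, *Ykt6* (0.13) after CHYL-sized particles was no longer called. With a replicate block, *Vps39* (0.18) and *Wdfy3* (-0.28) after CHYL-sized particles were past the threshold. With a batch term for replicate 3, *Vps39* (0.18) and *Wdfy3* (-0.27) after CHYL-sized particles were past the threshold. Without replicate 3 of each group, *Vps39* (0.20) and *Wdfy3* (-0.29) after CHYL-sized particles were past the threshold. With edgeR quasi-likelihood, *Wdfy3* (-0.28) after CHYL-sized particles was past the threshold. With DESeq2, *Wdfy3* (-0.28) after CHYL-sized particles was past the threshold. With library size only, *Wdfy3* (-0.35) after CHYL-sized particles was past the threshold. With DESeq2 size factors in voom, *Wdfy3* (-0.28) after CHYL-sized particles was past the threshold. With a stricter filter, *Wdfy3* (-0.28) after CHYL-sized particles was past the threshold.

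Of the 9 regulators that act on these genes, 3 were higher and 1 lower after VLDL-sized, and 3 were higher and 1 lower after CHYL-sized particles (44.4% and 44.4% called). *Tfeb*, which encodes a transcription factor of lysosomal and autophagy genes, measured 33.4, 33.7 and 35.9 cpm in control libraries, 17.3, 16.6 and 12.8 cpm after VLDL-sized and 18.8, 20.9 and 16.7 cpm after CHYL-sized particles. All treated libraries lay below the control libraries (log2 fold change -1.15 ± 0.11 SE, limma-voom adjusted p = 2.45e-05, after VLDL-sized and -0.87 ± 0.11, adjusted p = 0.000195, after CHYL-sized particles). Its relatives differed: *Mitf* rose by 0.59 and 0.63 (limma-voom adjusted p = 1.58e-05 and 1.74e-05), and *Tfe3* was at 0.06 and 0.11 (adjusted p = 0.373 and 0.137, limma-voom), the first of which was -0.03 with library size only. *Tbk1*, the kinase that phosphorylates p62 and optineurin, rose by 0.43 and 0.35 (limma-voom adjusted p = 0.000466 and 0.00268). *Keap1*, the adaptor that p62 binds, had log2 fold changes of 0.28 and 0.27 (limma-voom adjusted p = 0.0259 and 0.042). *Keap1* after VLDL-sized particles was no longer called without control replicate 1 (0.26), control replicate 2 (0.26), VLDL-sized replicate 1 (0.30) or VLDL-sized replicate 3 (0.19). *Keap1* after CHYL-sized particles was no longer called without control replicate 1 (0.25), control replicate 2 (0.24), CHYL-sized replicate 1 (0.28), CHYL-sized replicate 2 (0.29) or CHYL-sized replicate 3 (0.23). With library size only, *Keap1* (0.19) after VLDL-sized particles and *Keap1* (0.19) after CHYL-sized particles were no longer called. With no filter, *Keap1* (0.27) after CHYL-sized particles was no longer called. With a batch term for replicate 3, *Tfe3* (0.11) after CHYL-sized particles was past the threshold. *Nfe2l2* encodes NRF2, the factor that KEAP1 holds back and p62 can release, and its mRNA measured 256, 248 and 347 cpm in control libraries, 244, 251 and 267 cpm after VLDL-sized and 245, 249.9 and 283 cpm after CHYL-sized particles. Control replicate 3 was the highest of the 9 libraries. The log2 fold changes of *Nfe2l2* were -0.14 and -0.11 (limma-voom adjusted p = 0.369 and 0.508) and turned to 0.01 and 0.04 without that library.

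Of the 7 NRF2 target genes, *Nqo1*, an NADPH quinone reductase, had 6, 1 and 5 counts in the control libraries and passed the filter only through the treated groups. Its log2 fold changes of 5.03 and 4.85 therefore rest on few control counts and are given as a description. The other 6 had more than 10 counts in every library, and limma-voom called each of them higher after both particles (Benjamini-Hochberg adjusted p below 0.05). For comparison, the share called higher among all genes tested was 17.8% after VLDL-sized and 12.7% after CHYL-sized particles. Among these 6 the largest log2 fold changes after both particles were 4.78 and 4.41 for *Hmox1*, heme oxygenase, and 4.56 and 4.12 for *Slc7a11*, a cystine transporter. *Srxn1*, sulfiredoxin, had 3.25 and 3.00, and *Gclm*, named after its values were seen, 3.15 and 3.11. The lowest were 1.64 and 1.58 for *Gclc*, also named after its values were seen, so that *Sqstm1* lay within the range of these 6 and *Gabarapl1*, at 1.60 and 1.40, below it.

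The genes whose pattern was most like that of *Sqstm1* were sought over the 9 libraries, by the root mean square difference of log2 cpm after subtraction of each gene's own control mean. The nearest 5 of the other tested genes were *Blvrb* (root mean square difference 0.0928, log2 fold changes 1.79 and 1.76), *Abcc1* (root mean square difference 0.106, log2 fold changes 1.85 and 1.71), *Prdx1* (root mean square difference 0.106, log2 fold changes 1.98 and 1.82), *Txnrd1* (root mean square difference 0.128, log2 fold changes 1.90 and 1.89) and *Slc6a9* (root mean square difference 0.138, log2 fold changes 2.09 and 1.75). *Blvrb* encodes a biliverdin reductase, *Abcc1* an export pump for glutathione conjugates, *Prdx1* a peroxiredoxin, *Txnrd1* a thioredoxin reductase, which is also one of the 7 NRF2 targets, and *Slc6a9* a glycine transporter. The median over all genes was 1.51. This is a description of these libraries with no test.

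Promoter windows of 300 bases (250 before to 50 after the annotated start; RefSeq, GRCm38.p6) were found for 9 of the 10 genes. They were searched on both strands for TGACNNNGC, the core of the antioxidant response element bound by NRF2, for CACGTG, the E-box core of the CLEAR element bound by TFEB, and for TGATGNAA, the core of the CEBP-ATF response element. TGACNNNGC occurred in the windows of 2 of the 9 genes, *Tax1bp1* and *Map1lc3b*, against 14.0% of all 27025 genes with a window (12.4% of 32851 windows), and in 3 of the 5 NRF2 target genes with a window. CACGTG, which reads the same on both strands, and TGATGNAA occurred in none of the 9, so no motifs overlapped there, against 8.09% and 4.51% of all genes with a window (7.15% and 3.97% of windows). Of 50 other autophagy genes with a window, 9 held TGACNNNGC, 11 held CACGTG and 0 held TGATGNAA. A match describes letters in a window, and a window without one says only that these letters are not in it.

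The windows of *Sqstm1* and *Gabarapl1* are shown because their log2 fold changes were the largest of the 10, and those of *Tax1bp1* and *Map1lc3b* because they hold a match, printed in capitals. The *Sqstm1* window (chr11:50210771-50211070, minus strand) has 63.3% G and C and the *Gabarapl1* window (chr6:129532942-129533241, plus strand) 46.3%, against a median of 52.7% for all windows; neither holds a searched motif. The *Tax1bp1* window is the second of 2 for that gene (chr6:52713915-52714214, plus strand), with TGACGAAGC at bases 46 to 54, and the *Map1lc3b* window (chr8:121590188-121590487, plus strand) has TGACTCGGC at bases 255 to 263, after the annotated start, both on the strand of the gene and counted from the 5′ end of the window.
Sqstm1: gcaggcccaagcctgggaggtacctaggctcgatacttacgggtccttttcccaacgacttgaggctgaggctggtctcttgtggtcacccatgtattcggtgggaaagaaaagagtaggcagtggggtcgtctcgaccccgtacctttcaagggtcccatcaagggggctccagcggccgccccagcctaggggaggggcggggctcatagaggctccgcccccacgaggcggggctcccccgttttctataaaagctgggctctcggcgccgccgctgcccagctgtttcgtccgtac
Gabarapl1: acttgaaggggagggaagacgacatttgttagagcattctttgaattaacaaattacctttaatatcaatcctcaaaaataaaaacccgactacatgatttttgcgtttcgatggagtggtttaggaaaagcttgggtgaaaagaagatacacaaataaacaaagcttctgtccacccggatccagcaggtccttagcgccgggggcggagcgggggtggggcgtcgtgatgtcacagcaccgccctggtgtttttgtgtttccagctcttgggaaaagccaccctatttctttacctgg
Tax1bp1: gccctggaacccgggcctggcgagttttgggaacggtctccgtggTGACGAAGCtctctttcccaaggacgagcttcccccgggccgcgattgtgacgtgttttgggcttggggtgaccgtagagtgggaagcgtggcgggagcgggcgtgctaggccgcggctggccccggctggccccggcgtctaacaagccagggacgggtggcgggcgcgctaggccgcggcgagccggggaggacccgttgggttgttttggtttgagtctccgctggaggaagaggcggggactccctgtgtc
Map1lc3b: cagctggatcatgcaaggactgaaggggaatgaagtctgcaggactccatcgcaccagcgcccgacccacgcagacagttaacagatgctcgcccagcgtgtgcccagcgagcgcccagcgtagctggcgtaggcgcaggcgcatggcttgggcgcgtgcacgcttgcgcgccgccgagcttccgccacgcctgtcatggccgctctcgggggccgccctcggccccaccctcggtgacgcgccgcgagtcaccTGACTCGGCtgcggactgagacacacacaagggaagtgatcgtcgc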

How the data were processed

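The 10 genes and all lists were chosen with earlier results of these data known. For every gene the deposited table holds the estimated count, which the authors obtained by quantifying reads against transcripts (Salmon 0.14.1 in the submitters' processing notes). The methods state a scaling, while 58.3% of values above 10 were whole numbers exactly, with no tolerance, and the table was taken as unscaled. The filter kept 12637 of 54432 genes, each above 10 counts in 3 or more of the 9 libraries. TMM factors (edgeR 4.0.16), voom weights and limma 3.58.1 (R 4.3.3) were used in 1 model of 9 libraries with no block, with Benjamini-Hochberg adjustment over all genes tested. Counts were rounded for edgeR and DESeq2 1.42.0.

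The VLDL-sized and control libraries of the same number correlated at 0.14, 0.13 and 0.29 across genes, which are not independent replicates. Each correlated best with its own number. Between replicates 1 and 2, unlike numbers gave 0.012 (VLDL-sized replicate 1 with control replicate 2) and 0.12 (VLDL-sized replicate 2 with control replicate 1). Pairing rests only on the labels' shared numbers and this check, since the methods give the numbers no such meaning. The pipeline was run on simulated counts with known changes and no replicate effect. That run cannot show how the fit behaves where replicate 3 stands apart, as here. Alternatives were edgeR's quasi-likelihood test, DESeq2, limma-trend, library size only, upper quartile, DESeq2 size factors in voom, no filter, a stricter filter (more than 50 counts), only the groups compared, a replicate block, a batch term for replicate 3, and leaving out each library or replicate 3 of all groups.

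All 10 genes were named. From each other list up to 4 were named, those with the largest absolute log2 fold change after VLDL-sized particles among called genes, plus *Keap1*, *Nfe2l2*, *Tbk1*, *Tfeb* and *Tfe3*. Outside this rule, *Gclm* and *Gclc* were named after their values were seen and *Calcoco2* for its 0 counts. Marker genes, genes overlapping the 10 and genes nearest to *Sqstm1*, among them *Txnrd1*, were also named outside it. Coordinates, lengths and shared stretches come from GENCODE M21 on GRCm38 (the authors used M22 on the same assembly), with the longest protein-coding transcript as length. Promoter windows come from RefSeq (GRCm38.p6), matched by symbol for 9 of 10 genes, without *Map1lc3a*. Protein motifs were planned and not searched, since no protein table was at hand.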

Additional observations from a re-analysis of the deposited data

How the results depend on the processing

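The log2 fold changes of the 10 genes in all 3 comparisons and the numbers of called genes were recomputed under 18 alternatives. So were, against control only, the log2 fold changes of the other genes named by the rule above. Levels and shares per kilobase were recomputed with exon-union and median transcript length only. Counts within the other lists and the markers, and the values of *Gclm*, *Gclc* and *Txnrd1*, are from the main fit only. For the 10 genes, 174 of 180 values after VLDL-sized particles, 158 of 180 after CHYL-sized particles and 171 of 180 between the particles kept their direction and their side of the threshold. Of the others, 6 and 13 against control lost a call, 4 after CHYL-sized particles and 4 between the particles gained one, and 5 and 5 changed sign. For the other named genes, 543 of 576 (VLDL-sized) and 491 of 576 (CHYL-sized) kept both, 31 and 56 lost a call, 28 gained one after CHYL-sized particles, and 2 and 1 changed sign. The number of the 10 genes called was 7 to 8 after VLDL-sized and 5 to 8 after CHYL-sized particles, and the number of all genes 3482 to 6212 and 2320 to 5147.

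The replicate block, which takes libraries of the same number as related, changed no call of the 10 genes in VLDL-sized against control. After CHYL-sized particles it called *Gabarap*, as did the batch term for replicate 3. Against control the replicate block gave 6058 called genes after VLDL-sized and 4949 after CHYL-sized particles. The batch term gave 6212 and 5147, and the main fit 4500 and 3249. Between the particles the replicate block called 1 of the 10 genes and 147 genes in all, the batch term 1 and 239, and DESeq2 24 genes in all. Leaving out libraries gave 0 to 2 of the 10 genes and 0 to 257 genes there. Across genes, which are not independent replicates, same-number libraries correlated at 0.12, 0.068 and 0.34 for CHYL-sized with control and 0.029, 0.12 and 0.36 for VLDL-sized with CHYL-sized. In these comparisons not every library correlated best with its own number: CHYL-sized replicate 2 with control replicate 1 reached 0.16, and VLDL-sized replicates 1 and 2 with CHYL-sized replicates 2 and 1 reached 0.18 and 0.17. The check sets replicate 3 apart and does not pair replicates 1 and 2 there.

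With library size only, the log2 fold change of *Tfe3* after VLDL-sized particles was -0.032 and that of *Map1lc3a* after CHYL-sized particles -0.031. Over the left-out libraries, signs changed for *Nfe2l2* after VLDL-sized (-0.23 to 0.012) and CHYL-sized particles (-0.20 to 0.039), for *Map1lc3a* (-0.025 to 0.11) and *Wipi1* (-0.21 to 0.10) after CHYL-sized particles, and for *Map1lc3b* (-0.025 to 0.013) and *Gabarap* (-0.059 to 0.069) between the particles. None of these passed the threshold, and the cause was not tested.

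Control levels per kilobase depended on the length by construction. With exon-union length they were 131 for *Sqstm1*, 11.7 for *Nbr1*, 2.51 for *Optn*, 20.5 for *Tax1bp1*, 11.7 for *Map1lc3b*, 121 for *Gabarap*, 28.7 for *Gabarapl2* and 1.32 for *Wipi1* cpm per kb. With median transcript length they were 266 for *Sqstm1*, 21.5 for *Nbr1*, 262 for *Tax1bp1*, 53.3 for *Map1lc3b*, 212 for *Gabarap*, 75.8 for *Gabarapl1* and 2.84 for *Wipi1* cpm per kb.

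*Wipi1* had 98 to 167 and *Map1lc3a* 115 to 134 counts per library, and a count of 10 corresponded to 0.421 to 0.456 cpm. The part of depth in the results of these genes was not tested. There were 3 libraries a group from 1 cell line at 1 time and, by the methods, 1 dose. Protein levels or autophagic flux were not measured. When a library was left out, its group kept the other libraries and shared the spread estimated over all groups.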
